A study of Mus musculus with 1279 samples.

Results

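Heart fibroblast clusters 1 and 4 were compared with each other. Cluster 1, which the study regards as likely valve interstitial cells, held 70 cells, and cluster 4, one of its heart fibroblast clusters, held the others of the 303 cells described here, out of 1279 cells in the series. The members were all cells whose deposited label gave cluster 1 or cluster 4. The question was what separates the 2 clusters, given that cluster 4 shares with cluster 1 the expression of Prg4, Comp and Scara3. The study sequenced single stromal cells of the adult mouse heart with Smart-seq2, a plate-based method that copies full-length cDNA and has no molecular identifiers. Every animal was an adult male of 10 to 20 weeks on the C57Bl6/J background, and endothelial cells were removed from every suspension by their CD31 antigen. In C57BL6 mice, which carry no reporter, cells were gated on antibodies against PDGFRα or PDGFRβ. PdgfrbGFP mice carried eGFP under Pdgfrb sequences, Cspg4dsRED mice carried DsRed under Cspg4 sequences, and Acta2GFP mice carried GFP under Acta2 sequences. The reporters mark mural cells as well as fibroblasts, so each strain sampled the fibroblasts through a different gate, and the Acta2GFP tissue was also treated with elastase.

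Valve interstitial cells are the fibroblast-like cells inside the heart valve leaflets. They build and maintain a layered matrix of collagen, proteoglycans and elastic fibres, and valve tissue is known to share matrix genes and transcription factors with tendon and cartilage. Fibroblasts elsewhere in the heart lie between the muscle fibres and around vessels, and cells in the outer coat of vessels are known for genes such as Pi16, Cd248 and Ly6a. Cluster 1 had 19 cells from C57BL6, 22 from PdgfrbGFP, 3 from Cspg4dsRED and 26 from Acta2GFP. Cluster 4 had 53 cells from PdgfrbGFP, 13 from Cspg4dsRED and 40 from Acta2GFP, and the remaining cells, the majority, from C57BL6. Raw read counts were summed per strain and cluster, which gave 4 sums a side, and levels are given as CPM, the count of a gene scaled to a common library total. CPM takes no account of transcript length, so levels are compared between cell groups and not between genes. Called genes had an adjusted p under 0.05 in the edgeR quasi-likelihood test with strain as the block.

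Both clusters expressed fibroblast markers at similar summed levels, while the genes the study names for cluster 1 were at low levels in cluster 4. The 5 fibroblast markers Pdgfra, Col1a1, Col1a2, Dcn and Lum summed to between 10590 and 13824 CPM in cluster 1 and to between 11573 and 12335 CPM in cluster 4. The 5 cluster 1 genes Wif1, Comp, Fmod, Thbs1 and Cyp2e1 summed to between 6302 and 7531 CPM in cluster 1 and to between 417 and 739 CPM in cluster 4. These 5 genes were chosen by the study on these cells and are not independent evidence of what the cells are. In single cells their sum had a median of 5966 CPM in cluster 1, against 32.2 CPM for cluster 4 cells. They were not separated completely by this sum, since 5 of the 70 cluster 1 cells lay below the upper quartile of cluster 4, which was 496 CPM. The highest cluster 4 cell had 5164 CPM, and 31 cluster 1 cells lay below it.

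Depth and quality were similar in the median cell of the clusters. Sums held 810367 to 10601869 counts in cluster 1 and 4766209 to 45312928 counts in cluster 4, and the smallest was that of the 3 Cspg4dsRED cells. The median cell had 333384 counts and 4792 detected genes in cluster 1 and 349816 counts and 4644 detected genes in cluster 4. Exact sign-flip permutation tests over the 4 strains, two-sided, gave p = 0.625 for total counts, p = 0.5 for detected genes, p = 0.375 for the spike-in share and p = 0.5 for the mitochondrial share. With 4 strains this test cannot go below 0.13, so it could not have called a difference. Mesothelial and adipocyte markers were at or near 0 in both clusters. The 5 mural markers Rgs5, Notch3, Mcam, Des and Cspg4 summed to 730 CPM in Acta2GFP cluster 1 and to 125.5 to 397 CPM in the other cluster 1 sums, against 43.7 to 85.4 CPM in cluster 4. All 5 had a count in cluster 1. Pericyte markers, which share Rgs5 with the mural list, reached 832 CPM in Acta2GFP cluster 1 and at most 130 CPM in cluster 4. Smooth muscle markers ran from 259.1 to 985 CPM in cluster 1 and from 79.9 to 532 CPM in cluster 4. The part of mural RNA in the results was not tested. Immune markers summed to at most 7.61 CPM in cluster 1 and 31.3 CPM in cluster 4, and melanocyte markers to at most 11.5 and 4.06 CPM, with the defining genes Dct and Tyrp1 at 0. The 9 cardiomyocyte markers reached 364 CPM in C57BL6 cluster 1 and at most 106.2 CPM in cluster 4.

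Of 12607 genes tested, 45 were called between the clusters, or 0.357%. Cluster 1 was higher for 23 genes (0.182% of those tested) and lower for 22 genes (0.175%). All 45 had the same direction in the 4 strains. For 44 of them the 4 cluster 1 levels and the 4 cluster 4 levels did not overlap, against 7.23% of all genes tested. The median log2 fold change over all genes tested was -0.33, so the fold changes below are to be read against that value. The clusters were defined by the authors on the same counts, and the p-values do not allow for this. DESeq2 called 895 genes (7.10% of those tested) and limma voom 2.20%, and counts by these tools below are to be read against these shares. Of the DESeq2 calls 32.2% were higher in cluster 1 against 51.1% of the edgeR calls, and its list held all 45. Leaving out PdgfrbGFP left 3 calls, leaving out C57BL6 13, leaving out Acta2GFP 14 and leaving out Cspg4dsRED 64, and no tested gene of the 45 turned its direction. Of the 45, 3, 9, 13 and 36 were still called in these fits, so most single calls below depend on PdgfrbGFP, C57BL6 and Acta2GFP all being present.

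**Figure D1:**
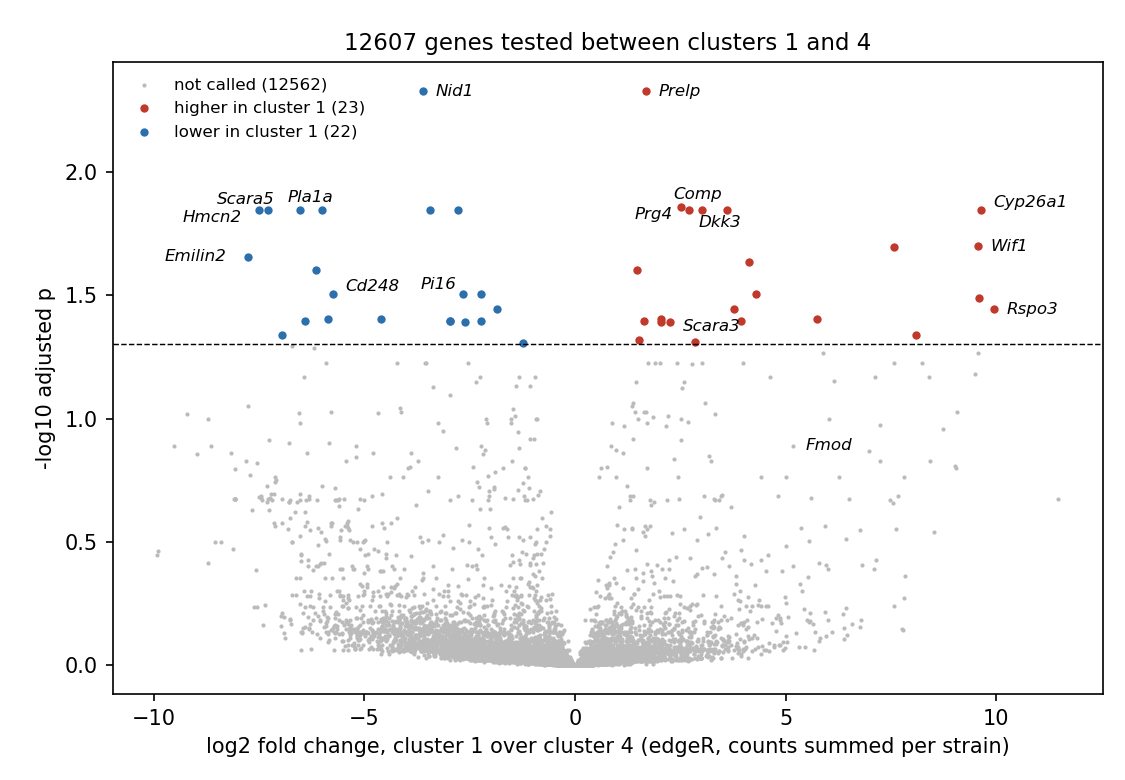
Log2 fold change of cluster 1 over cluster 4 (x axis) against -log10 of the adjusted p (y axis) for the 12607 genes tested, each point a gene. The dashed line marks the call threshold, above which lie 23 genes higher (red) and 22 genes lower (blue) in cluster 1. Fmod, at a log2 fold change of 5.17, lies below the line in this fit.

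Prg4, Comp and Scara3 followed a graded order, highest in cluster 1, intermediate in cluster 4 and lowest in the pooled clusters 2, 3 and 5. The genes were chosen because cluster 4 shares them with cluster 1, so the lower step of this order is a description. Expression in cluster 1 was part of that choice, and the study names Comp for cluster 1 on these same cells. The upper step is therefore not independent of the choice either. Prg4 (chr1:150449412-150466165) encodes lubricin, the proteoglycan that lubricates joint and tendon surfaces. In C57BL6, PdgfrbGFP, Cspg4dsRED and Acta2GFP its level was 1120.4, 2301, 3493 and 1809.8 CPM in cluster 1, and 229.03, 237.4, 407 and 385 CPM in cluster 4. The lowest cluster 1 sum was therefore above the highest cluster 4 sum. Cluster 1 exceeded cluster 4 by 2.72 on the log2 scale (SE 0.24, adjusted p = 0.0143). In clusters 2, 3 and 5 Prg4 stood at 23.7 to 73.5 CPM. That pool held 398 cells in C57BL6 but only 10 in Cspg4dsRED and 54 in Acta2GFP. Cluster 2 gave 8 of these 10 cells and 38 of these 54, and cluster 5 fewer than 3 cells in either strain. The make-up of the pool thus differed between strains.

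Comp (chr8:70373558-70382066) encodes a pentameric thrombospondin of cartilage and tendon that binds collagen. Its level was 1850.2, 2468, 1383 and 981 CPM in cluster 1, in the same strain order, and 243.6, 388, 306 and 191.9 CPM in cluster 4. The 2 ranges did not overlap, and the log2 fold change was 2.52 (SE 0.21, adjusted p = 0.0138). Clusters 2, 3 and 5 had 15.1 to 116.8 CPM. Scara3 (chr14:65919394-65953935), a scavenger receptor-like protein linked to protection from oxidative stress, stood at 501, 771, 1691 and 821 CPM in cluster 1. In cluster 4 it stood at 183.9, 168.3, 161.8 and 191.7 CPM, a spread of 13.8 CPM (SD, n = 4) around a mean of 176.4. Its log2 fold change was 2.27 (SE 0.32, adjusted p = 0.0405), and clusters 2, 3 and 5 had 36.3 to 66 CPM.

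The difference between cluster 4 and clusters 2, 3 and 5 did not pass the edgeR threshold for these genes. The log2 fold changes of cluster 4 over clusters 2, 3 and 5 were 3.11 for Prg4, 3.20 for Comp and 1.98 for Scara3, with adjusted p of 0.11, 0.171 and 0.106. All 3 genes were higher in cluster 4 in 4 of 4 strains, which restates how they were chosen and is no test. In that comparison edgeR called 0 of 14104 genes (0.0%), with 850 at an unadjusted p under 0.05. DESeq2 called 444, these 3 genes among them, with adjusted p of 1.3e-12 for Prg4, 3.0e-09 for Comp and 2.1e-10 for Scara3. The log2 fold changes of cluster 1 over clusters 2, 3 and 5 were 5.79, 5.75 and 4.25, with adjusted p of 0.0063, 0.0172 and 0.013, in a comparison with 0.874% of 12701 genes called. These comparisons share their sums with the one above and are not independent of it. Among groups of 3 or more cells of a single cluster and strain, 1 departed from the order. The 7 PdgfrbGFP cells of cluster 3 had 518 CPM of Scara3. Smaller groups entered the pooled sums only and were not examined singly.

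Pooled over strains, fewer cluster 4 cells than cluster 1 cells carried each gene, but not within every strain. After every cell was thinned to 50000 counts, Prg4 had a count in 82.9% of cluster 1 cells and 47.6% of cluster 4 cells, against 90% and 70% at full depth. The thinned shares were 71.4% and 37.8% for Comp and 75.7% and 38.6% for Scara3. The strains make up different parts of the clusters, so pooled shares mix them. Comp was found in 65.4% of cluster 1 cells and 75% of cluster 4 cells of Acta2GFP, and Prg4 in 66.7% and 69.2% of those of Cspg4dsRED, so there the order was turned. In the other strains, and for Scara3 in all 4, the share was higher in cluster 1. All 3 genes were detected together in 39 of 70 cluster 1 cells, or 55.7% (Wilson 95% interval 44.1 to 66.8%), and in 26 cluster 4 cells, or 11.2% (7.73 to 15.8%). These intervals cover counting error only. Within strains the share was 61.5% (42.5 to 77.6%) in cluster 1 and 37.5% (24.2 to 53%) in cluster 4 of Acta2GFP, and these intervals overlapped. It was 54.5% and 5.66% in PdgfrbGFP, 47.4% and 4.72% in C57BL6, and 66.7% (2 of 3 cells) and 15.4% in Cspg4dsRED, where the intervals also overlapped. They were separate in PdgfrbGFP (34.7 to 73.1% and 1.94 to 15.4%) and C57BL6 (27.3 to 68.3% and 2.18 to 9.92%). Acta2GFP cells also had the most detected genes, with a median of 6488 in cluster 4 against 4040 to 5568 in the other strains, and the part of this in the result was not tested. In clusters 2, 3 and 5 the share was 4.57%, 6.25% and 1.71%.

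**Figure D2:**
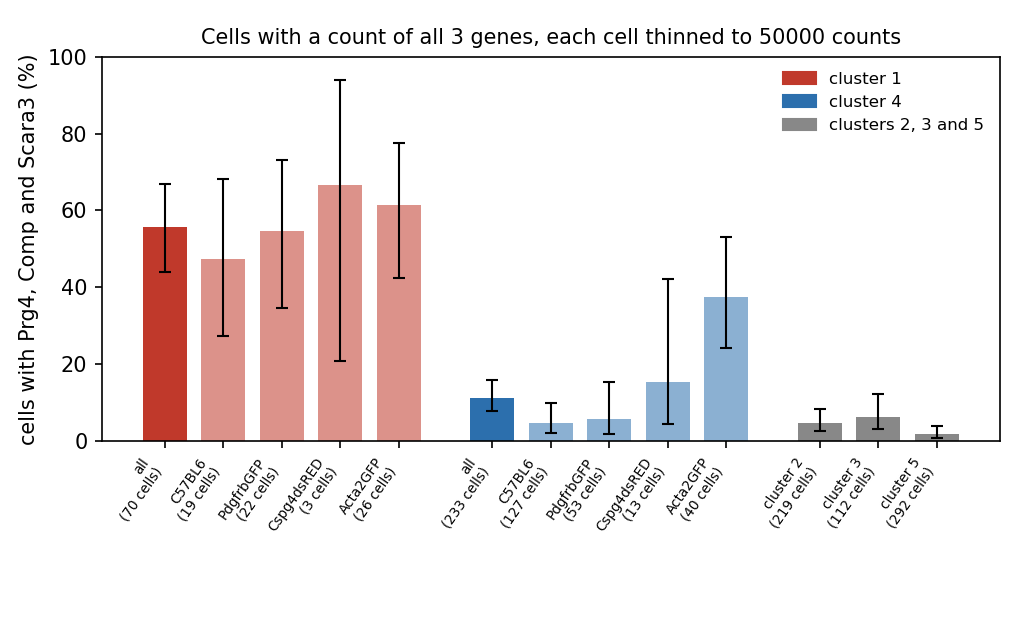
Share of cells (y axis, percent) with a count of Prg4, Comp and Scara3 together, each cell thinned to 50000 counts, by cluster and strain. Error bars are Wilson 95% intervals over cells. Cluster 1 stands at 55.7% and cluster 4 at 11.2%, while in Acta2GFP they stand at 61.5% and 37.5% with overlapping intervals.

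Prg4 rested on 1 plate in C57BL6. That strain came from 2 plates with both clusters, and on the plate with 3 cluster 1 cells Prg4 stood at 127.6 CPM in cluster 1 and 261.8 CPM in cluster 4. On the plate with 16 cluster 1 cells the values were 1288 and 206.6 CPM. Comp and Scara3 were higher in cluster 1 on both plates, at 2026 and 808 CPM for Comp against 287.5 and 179.4 CPM, and at 476 and 652 CPM for Scara3 against 144.8 and 241.04 CPM. With the plate as the unit the adjusted p of Prg4 was 0.114, at a log2 fold change of 2.18. Without PdgfrbGFP the adjusted p was 0.0607 for Prg4, 0.0767 for Comp and 0.175 for Scara3. Their log2 fold changes there were 2.51, 2.45 and 2.27. Scara3 also lost its call without C57BL6 (0.0772) or Acta2GFP (0.175), at log2 fold changes of 2.55 and 2.34. Of the 23 genes higher in cluster 1, all 23 kept their direction on the first plate and 20 on the second, where Prg4, Chad and Abi3bp did not.

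A second set of genes was at very low summed levels in cluster 4 and in clusters 2, 3 and 5 alike. Wif1 (chr10:121033960-121100650) encodes a secreted protein that binds Wnt ligands and keeps them from their receptors. It stood at 1265, 1882, 1491 and 932 CPM in cluster 1, and at 0.971, 3.03, 0 and 7.05 CPM in cluster 4. Wif1 was thus abundant in every cluster 1 sum and close to 0 in every cluster 4 sum, and clusters 2, 3 and 5 had 0 to 5.23 CPM. The log2 fold change was 9.57 (SE 1.04, adjusted p = 0.0201). At the thinned depth Wif1 had a count in 74.3% of cluster 1 cells and 9.87% of cluster 4 cells, against 84.3% and 34.8% at full depth, and 10 CPM or more was reached by 51 and 20 cells.

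**Figure D3:**
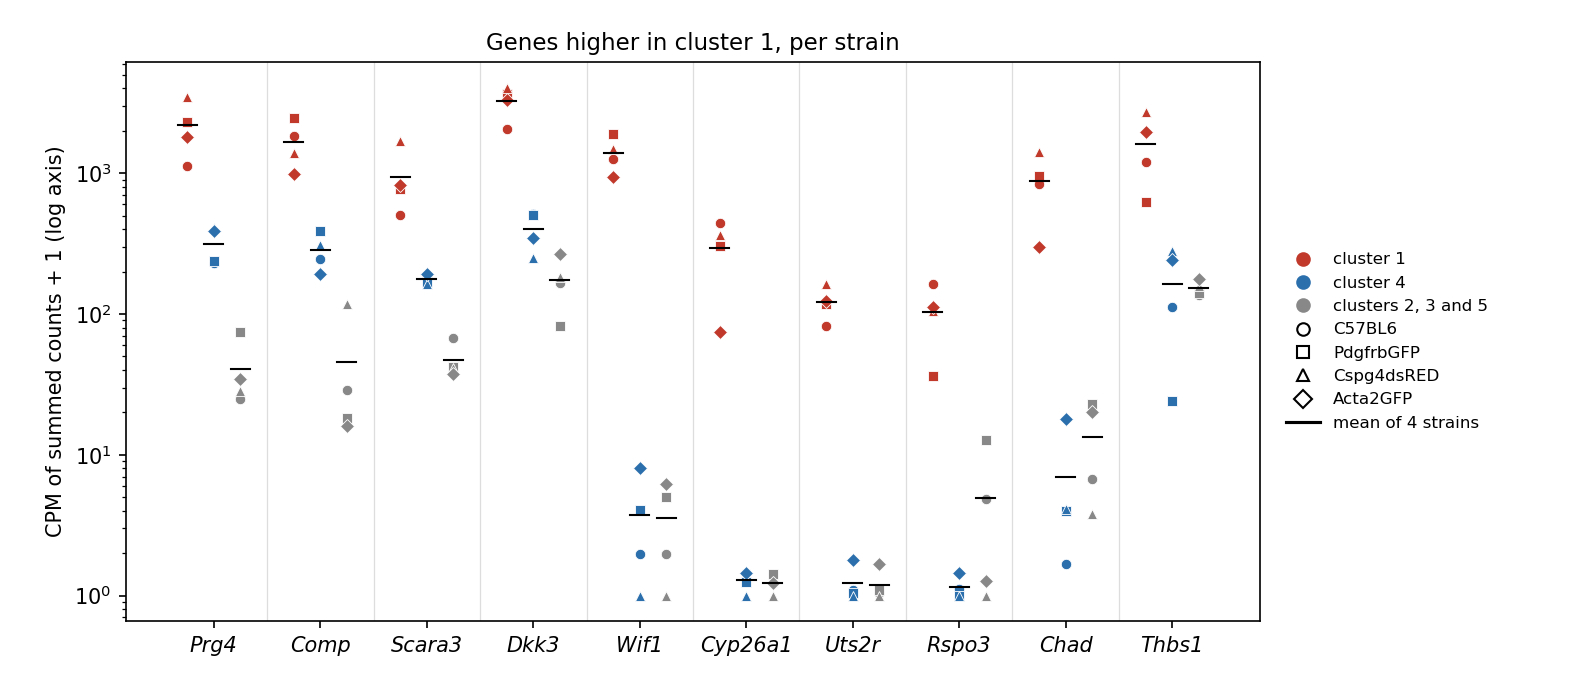
Levels of 10 genes higher in cluster 1, as CPM of summed counts plus 1 on a log axis, for cluster 1 (red), cluster 4 (blue) and clusters 2, 3 and 5 (grey), with a symbol per strain and a bar at the mean of the 4 strains. Prg4, Comp and Scara3 step down over the 3 groups, while Wif1, Cyp26a1 and Uts2r are near 0 in both cluster 4 and clusters 2, 3 and 5.

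Cyp26a1 (chr19:37697798-37701536), the enzyme that breaks down retinoic acid, had the same pattern. Retinoic acid acts through nuclear receptors that bind pairs of a short half-site in DNA, and Cyp26a1 is itself a classic target of these receptors. The RefSeq promoter window of Cyp26a1 (GRCm38.p6, plus strand, chr19:37697558-37697857, from 250 bases before to 50 bases after the start) is shown because it holds such a pair, marked by capitals.
Cyp26a1 promoter: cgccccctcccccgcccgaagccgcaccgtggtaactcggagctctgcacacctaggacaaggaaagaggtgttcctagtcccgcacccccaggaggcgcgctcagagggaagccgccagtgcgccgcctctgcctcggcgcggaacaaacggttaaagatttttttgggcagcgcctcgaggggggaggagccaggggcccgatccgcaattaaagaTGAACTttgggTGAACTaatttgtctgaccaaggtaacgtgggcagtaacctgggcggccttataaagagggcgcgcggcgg
The search took any 2 copies of a half-site, which could be AGGTCA, or else AGTTCA, or else GGGTCA, or else GGTTCA, in the same orientation with 5 bases between them, on both strands. The pair lies on the minus strand, so the capitals are its reverse complement. Such a pair was present in 32 of 32851 promoter windows of this length, or 0.0974%. Of the 55 genes named by rule, 39 had a window, and only that of Cyp26a1 held the pair.

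Cyp26a1 stood at 439, 305, 364 and 74 CPM in cluster 1 and at 0.441, 0.257, 0 and 0.457 CPM in cluster 4. No cluster 4 sum reached 1 CPM, and the whole of cluster 4 held 32 counts of the gene. The log2 fold change was 9.63 (SE 0.92, adjusted p = 0.0143). Few cells carried it, with a count in 28.6% of cluster 1 cells at the thinned depth. It was the 1 member called of 19 tested in a list of retinoic acid genes, whose median log2 fold change was 0.04, beside 0.182% of all genes called higher. The list had 0 calls without C57BL6 or PdgfrbGFP, 4 in DESeq2 and 3 in limma voom. Aldh1a1, a retinoic acid synthesis enzyme, had a log2 fold change of 1.17 (adjusted p = 0.107) and the receptor gene Rarb one of 1.94 (adjusted p = 0.857). These 2 members did not pass the test.

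Secreted modulators of Wnt signalling formed the next group. Of 7 Wnt antagonists tested, 3 rose and none fell, with a median of 2.05 on the log2 scale, beside 0.182% of all genes called higher and a median of -0.33. The count was 1 without Acta2GFP, 2 without C57BL6 or Cspg4dsRED, 0 without PdgfrbGFP and 4 in DESeq2 and limma voom. Besides Wif1 these were Dkk3 and Frzb. Dkk3, a divergent member of the Dickkopf family, stood at 2043, 3637, 4059 and 3285 CPM in cluster 1 and 509.7, 502, 250.3 and 346 CPM in cluster 4. It had a count in every cluster 1 cell, and its log2 fold change was 3.03 (SE 0.30, adjusted p = 0.0143). Frzb, a secreted Frizzled-related protein first described in cartilage, stood at 485, 1477, 743 and 964 CPM in cluster 1 and 221.6, 296, 149.4 and 174.6 CPM in cluster 4 (log2 fold change 2.05, SE 0.27, adjusted p = 0.0396). In clusters 2, 3 and 5 Dkk3 stood at 81.3 to 264.8 CPM, below cluster 4 in 4 of 4 strains. Frzb stood there at 176.6 to 401 CPM, and was not below cluster 4 in every strain. Sfrp2, at a log2 fold change of 2.43, was not called (adjusted p = 0.0597).

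Rspo3 (chr10:29452416-29535867), an R-spondin that amplifies Wnt signals at the receptor, had a log2 fold change of 9.94 (SE 1.29, adjusted p = 0.036). It ran from 6.42 on mean CPM to 11.12 without Acta2GFP, and the call was lost without Acta2GFP, C57BL6 or PdgfrbGFP (adjusted p up to 0.241). Its levels were low in cluster 1, at 162.3, 35.2, 103.7 and 110.8 CPM, and cluster 4 had 0.11, 0, 0 and 0.457 CPM, or 12 counts in all. It was the 1 member called of 19 tested Wnt ligands, receptors and targets, whose median was 0.24, beside 0.182% of all genes called higher. DESeq2 called 8 of them and limma voom 2. The target genes Axin2 and Nkd1 had log2 fold changes of 5.38 and 4.34 with adjusted p of 0.497 and 0.568, which did not pass. Antagonists and an agonist of the pathway were thus both among the genes higher in cluster 1.

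Of 23 tendon and cartilage genes tested, 3 were called, namely Prg4, Comp and Chad, and 20 were not. Prg4 and Comp belong to the question itself, and the list's median of 2.72 is the value of Prg4. A log2 fold change above 0 was found for 19 of the 23 and for 4682 of all 12607 genes. The 3 calls stand beside 0.182% of all genes called higher. The list had 0 calls without PdgfrbGFP, 2 without C57BL6, 8 without the strain block, 10 with no filter and 12 in DESeq2 and in limma voom. Chad (chr11:94565047-94569127) encodes chondroadherin, a leucine-rich repeat protein of cartilage. It stood at 835, 954, 1418 and 296 CPM in cluster 1 and at 0.684, 2.98, 3.15 and 16.8 CPM in cluster 4, with a log2 fold change of 8.10 (SE 1.16, adjusted p = 0.0458). On the C57BL6 plate with 3 cluster 1 cells it was 0 in both clusters. Scx, the tendon transcription factor scleraxis, was at 190.1, 118.8, 182.6 and 102.8 CPM in cluster 1 and 0 to 4.26 CPM in cluster 4, and narrowly missed the threshold (log2 fold change 7.13, adjusted p = 0.0676). The chondrocyte factor Sox9 had a log2 fold change of 0.45 (adjusted p = 0.861). Of 33 tested transcription factors of valve and heart edgeR called none, DESeq2 5 (beside 7.10% of all genes) and limma voom 4 (beside 2.20%), and their median was 0.31.

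Fmod, which encodes fibromodulin of the small leucine-rich proteoglycans and which the study names for cluster 1, was not called in the edgeR fit but was in 6 of 11 alternatives. It stood at 1563 to 2418 CPM in cluster 1, and its cluster 4 levels of 70.2, 1.8, 153.8 and 107.2 CPM varied widely among strains. The groups did not overlap, at a log2 fold change of 5.17 (SE 1.05, adjusted p = 0.129). The adjusted p was 6.9e-08 in DESeq2, 0.0378 without the strain block and 0.0141 with the plate as unit, and at most 0.441 over the 11. Of the 13 small leucine-rich proteoglycans tested, Prelp and Chad rose, with a median of 0.08, beside 0.182% of all genes called higher. The count was 1 without C57BL6, Cspg4dsRED or PdgfrbGFP, 5 in DESeq2 and 6 in limma voom. Prelp, which anchors basement membranes to collagen, had 3886, 4424, 5143 and 4376 CPM in cluster 1 and 1174, 1403, 1517 and 1388 CPM in cluster 4. Its fold was moderate and its error small (log2 fold change 1.69, SE 0.11, adjusted p = 0.00471). The called transcript Gm15851 lies on the opposite strand across Prelp, and the authors' counting is not stated to use strand, so the 2 cannot be told apart. The same holds for Timp3, an inhibitor of matrix metalloproteases, and Syn3, within which it lies.

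The thrombospondin Thbs1, a matricellular protein that binds matrix and growth factors, stood at 1209, 622, 2704 and 1947 CPM in cluster 1 and at 111.4, 23, 278.4 and 239.5 CPM in cluster 4 (log2 fold change 3.60, SE 0.34, adjusted p = 0.0143). The levels of Thbs1 in clusters 2, 3 and 5, 135.6 to 175.2 CPM, lay within the range of cluster 4 (log2 fold change of cluster 4 over these clusters -0.32, adjusted p = 0.981). Of 26 matricellular and adhesive genes tested, Thbs1, Comp and Abi3bp rose and Tnxb fell, beside 0.357% of all genes called. The count was 2 without Acta2GFP or without C57BL6, 1 without PdgfrbGFP, 10 with no filter and 11 in DESeq2 and in limma voom. With the plate as unit Abi3bp (log2 fold change 1.38, adjusted p = 0.667) and Tnxb (adjusted p = 0.0582) were not called, and Tnxb was not called without the strain block (adjusted p = 0.0805). Tnxb, the tenascin of loose connective tissue, stood at 28.9, 10.2, 17.3 and 68.7 CPM in cluster 1 and 179.3, 97.7, 181.1 and 427 CPM in cluster 4.

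Several further genes among the 12 largest increases come from other families. Uts2r, the receptor of the vasoactive peptide urotensin, stood at 81.6, 116.6, 162.9 and 122.7 CPM in cluster 1 and below 1 CPM in every cluster 4 sum (log2 fold change 9.59, SE 1.2, adjusted p = 0.0326). Cyp2e1, a cytochrome P450 that oxidises ethanol and small xenobiotics, was the 1 called gene whose groups overlapped. It stood at 789, 434 and 478 CPM in cluster 1 of C57BL6, PdgfrbGFP and Acta2GFP but at 2.47 CPM in the 3 Cspg4dsRED cells, against 0.21 to 4.44 CPM in cluster 4 (log2 fold change 7.59, SE 0.83, adjusted p = 0.0201). Lmcd1, a LIM-domain co-regulator, had 420.1 to 552 CPM in cluster 1 and 6.26 to 68.6 CPM in cluster 4. S100b, Ptn, Clu and Atp1b1 had log2 fold changes of 5.73, 4.13, 3.95 and 3.77. Tspan7, a called gene outside the 12, had 2.86. Of the 23 genes higher in cluster 1, cluster 4 was above clusters 2, 3 and 5 in 4 of 4 strains for Prg4, Comp, Scara3, Dkk3 and Tspan7, below them for 3 and mixed for 15. S100b is a calcium-binding protein also known from glia and cartilage.

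The genes lower in cluster 1 differed in how cluster 4 compared with clusters 2, 3 and 5. Of 22, 11 were higher in cluster 4 than in clusters 2, 3 and 5 in 4 of 4 strains, 3 were lower in 4 of 4 strains and 8 were mixed. These counts describe the levels and are not a test, since the genes were selected with the same cluster 4 sums, and edgeR called none of the differences between cluster 4 and clusters 2, 3 and 5. Of the 22, cluster 1 was also below clusters 2, 3 and 5 in 4 of 4 strains for 19.

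Cd248, Efhd1, Sema3c and Pi16 were among the 11. Cd248 (chr19:5068078-5070682), the stromal surface protein endosialin, stood at 8.11, 77, 2.47 and 59.7 CPM in cluster 1 and at 1344, 1381, 531 and 1516 CPM in cluster 4. Its log2 fold change was -5.74 (SE 0.71, adjusted p = 0.0314), and clusters 2, 3 and 5 lay between at 38.8 to 382 CPM. Efhd1, a mitochondrial calcium-binding protein, stood at 2.47 to 29.6 CPM in cluster 1, 217.6 to 378 CPM in cluster 4 and 1 to 101.3 CPM in clusters 2, 3 and 5 (log2 fold change -4.61, SE 0.62, adjusted p = 0.0396). Sema3c, a secreted guidance protein, stood at 16.7 to 50.2, 131.97 to 345 and 0.804 to 29.3 CPM in the same order. For Sema3c cluster 1 and clusters 2, 3 and 5 were alike low, and the log2 fold change of cluster 1 over cluster 4 was -2.96 (SE 0.41, adjusted p = 0.0403).

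Pi16 (chr17:29317680-29330593), a secreted peptidase inhibitor known from the outer coat of vessels, stood at 212.3, 372, 753 and 281.8 CPM in cluster 1 and at 2012, 2367, 1941 and 2776 CPM in cluster 4. The log2 fold change was -2.66 (SE 0.33, adjusted p = 0.0314), and clusters 2, 3 and 5 had 696 to 1754 CPM. Together with Cd55 and Scara5, these 4 were the 6 called members of 19 progenitor and adventitial fibroblast genes, all lower in cluster 1, beside 0.175% of all genes called lower. The count was 2 without Acta2GFP or without C57BL6, 9 without Cspg4dsRED and 0 without PdgfrbGFP, and 10 with the plate as unit, 12 on mean CPM, 14 in DESeq2 and 15 in limma voom or with no filter. The median of the list was -3.36, and 1 member, Procr, had a value above 0. Dpp4 and Ly6c1 had log2 fold changes of -7.76 and -5.91 with adjusted p of 0.0893 and 0.0597. Ly6a and Cd34 had -3.78 and -0.93 with adjusted p of 0.224 and 0.1, and did not pass either.

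**Figure D4:**
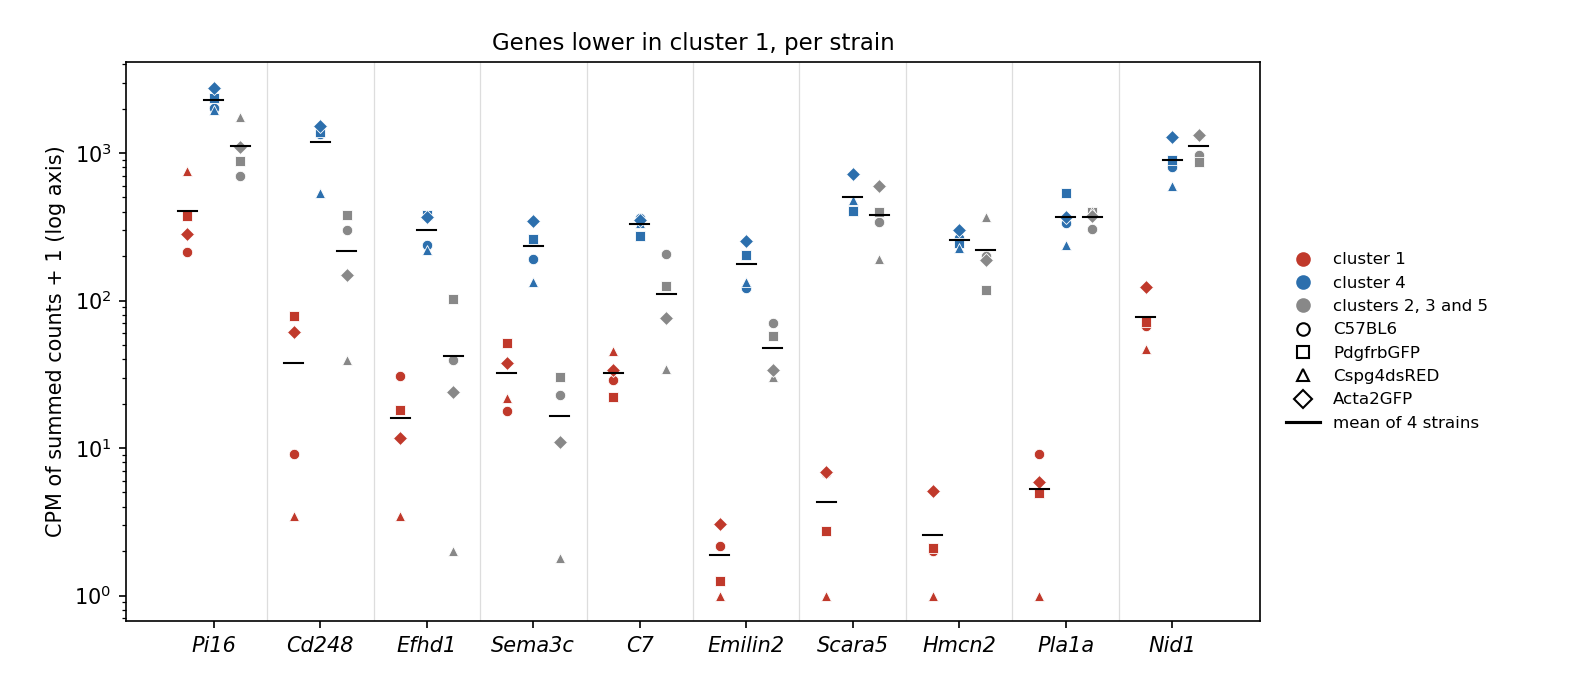
Levels of 10 genes lower in cluster 1, drawn as in the plot of the higher genes. Cd248, Efhd1 and Sema3c peak in cluster 4, while Hmcn2, Pla1a and Nid1 overlap between cluster 4 and clusters 2, 3 and 5 and are low in cluster 1.

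Hmcn2, Pla1a, Nid1 and Tek were among the 8 mixed genes, and Scara5, one of the 11, had a log2 fold change of 0.47 over clusters 2, 3 and 5. Scara5, a ferritin receptor, stood at 5.75, 1.73, 0 and 5.85 CPM in cluster 1 and at 405, 400.3, 482 and 721 CPM in cluster 4 (log2 fold change -7.29, SE 0.66, adjusted p = 0.0143). Clusters 2, 3 and 5 had 190.3 to 592 CPM. It is a class A scavenger receptor like Scara3, so these 2 related genes went in opposite directions. Hmcn2, a hemicentin of the matrix, and Pla1a, a phospholipase specific for phosphatidylserine, had at most 4.15 and 8.11 CPM in cluster 1 and at least 225.3 and 238.3 CPM in cluster 4. Their log2 fold changes were -7.51 (SE 0.70) and -6.53 (SE 0.66), each with adjusted p = 0.0143. In clusters 2, 3 and 5 they had 117.7 to 368 and 304 to 405 CPM.

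Nid1 (chr13:13437551-13512269) encodes nidogen, which links laminin and type IV collagen in basement membranes. It stood at 65.7, 70.1, 45.7 and 122.4 CPM in cluster 1 and 800.5, 894, 599.6 and 1282 CPM in cluster 4. Its log2 fold change of -3.60 had an SE of 0.22 (adjusted p = 0.00471), and it was called under all 11 alternatives tried, as was Prelp. The basement membrane collagens Col4a1 and Col4a2 had log2 fold changes of -2.82 and -1.58 and were not called, with adjusted p of 0.132 and 0.3. Tek, the angiopoietin receptor of endothelial cells, stood at 0 to 4.53 CPM in cluster 1 and 87.7 to 286.5 CPM in cluster 4 (log2 fold change -6.41, SE 0.88, adjusted p = 0.0403). The 7 endothelial markers, Tek among them, summed to 4.94 to 175.9 CPM in cluster 1 and 140 to 303 CPM in cluster 4. These sums hold Tek itself and are no separate sign of endothelial RNA. In PdgfrbGFP the sum was higher in cluster 1, at 175.9 against 139.8 CPM, although Tek was at most 4.53 CPM in cluster 1.

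Dpep1, a dipeptidase of the cell surface, was abundant in every fibroblast group except cluster 1. It stood at 44.5, 19.7, 1.23 and 45.7 CPM in cluster 1 and at 1388, 1364, 1439 and 1054 CPM in cluster 4, and at 1818 to 2707 CPM in clusters 2, 3 and 5. The log2 fold change of cluster 1 over cluster 4 was -5.86 (SE 0.78, adjusted p = 0.0396). Together with Tnxb and Slc1a5, an exchanger of neutral amino acids, it was among the 3 genes with cluster 4 below clusters 2, 3 and 5 in 4 of 4 strains. Pde9a, a phosphodiesterase specific for cyclic GMP, and Lims2, a focal adhesion adaptor, had at most 4.81 and 7.26 CPM in cluster 1 and at least 83.1 and 163.2 CPM in cluster 4. Their log2 fold changes were -6.94 and -6.14. Slc1a5, Lbp, Carhsp1, Axl and Slc43a3 had log2 fold changes of -2.78, -2.61, -2.23, -1.86 and -1.22, where Axl is a receptor tyrosine kinase and Lbp binds bacterial lipopolysaccharide.

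Elastic fibre and complement genes changed in single members. Of 22 elastic fibre genes, Emilin2 and Fbln2 fell and none rose, with a median of -0.57, beside 0.175% of all genes called lower. None was called without Acta2GFP, C57BL6 or PdgfrbGFP, and 6 were in limma voom. Emilin2, an elastin-associated glycoprotein, stood at 1.18, 0.248, 0 and 2.08 CPM in cluster 1 and 119.8, 201.2, 133.2 and 252.4 CPM in cluster 4 (log2 fold change -7.75, SE 0.87, adjusted p = 0.0221). Fbln2, fibulin 2, stood at 263.8 to 626 and 1348 to 2359 CPM (log2 fold change -2.23, SE 0.28, adjusted p = 0.0314). Among 11 complement genes C7 and Cd55 fell and Clu rose, 3 calls beside 0.357% of all genes. The count was 0 without PdgfrbGFP, 1 without C57BL6 and 6 in DESeq2. C7, a component of the membrane attack complex, had 21.1 to 44.4 CPM in cluster 1 and 273.4 to 363 CPM in cluster 4 (log2 fold change -3.44, SE 0.33, adjusted p = 0.0143). It was not called with the plate as unit (adjusted p = 0.0756) or without Acta2GFP, C57BL6 or PdgfrbGFP, with 0.0851 the highest value. Its log2 fold change was -3.89 with the plate as unit and -3.35 to -3.44 without 1 of these strains. Cd55 and Clu, which both restrain complement, went in opposite directions at log2 fold changes of -6.01 and 3.95.

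No collagen was called, but members of both collagen lists had small unadjusted p-values. None of 8 fibrillar collagens was called by edgeR, with 4 at an unadjusted p under 0.05. Col1a1 stood at 2744, 3194, 1605 and 2016 CPM in cluster 1 and 2189, 2685, 2461 and 2300.1 CPM in cluster 4, a log2 fold change of -0.06 (SE 0.20, adjusted p = 0.975). Col3a1, the main partner of type I collagen in soft tissue, stood at 526 to 1236 CPM in cluster 1 and 1554 to 2438 CPM in cluster 4, with no overlap (log2 fold change -1.17, SE 0.29, adjusted p = 0.214). None of 18 other collagens was called either, at a median of -1.40, with 8 at an unadjusted p under 0.05, against 957 of all 12607 genes. DESeq2 called 1 fibrillar and 5 other collagens, and limma voom 2 of each. By edgeR no member was called among 29 TGF-beta and BMP genes, 19 chemokines and cytokines, 22 immediate early and stress genes, 9 insulin-like growth factor genes, 25 interferon and antigen presentation genes and 17 lipid transport genes. Their medians were -0.14, -1.90, -0.59, 0.24, -1.12 and -0.75. DESeq2 called 4, 9, 2, 2, 1 and 3 of their members, beside 7.10% of all genes, and limma voom 4, 3, 1, 1, 0 and 1, beside 2.20%. Prg4 was the 1 call of 10 hyaluronan and large proteoglycan genes, and Cyp2e1 the 1 call of 21 glutathione and xenobiotic genes, whose medians were -0.43 and -0.62, beside 0.182% of all genes called higher. DESeq2 called 4 and 6 members, and without PdgfrbGFP edgeR called none of either list.

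**Figure D5:**
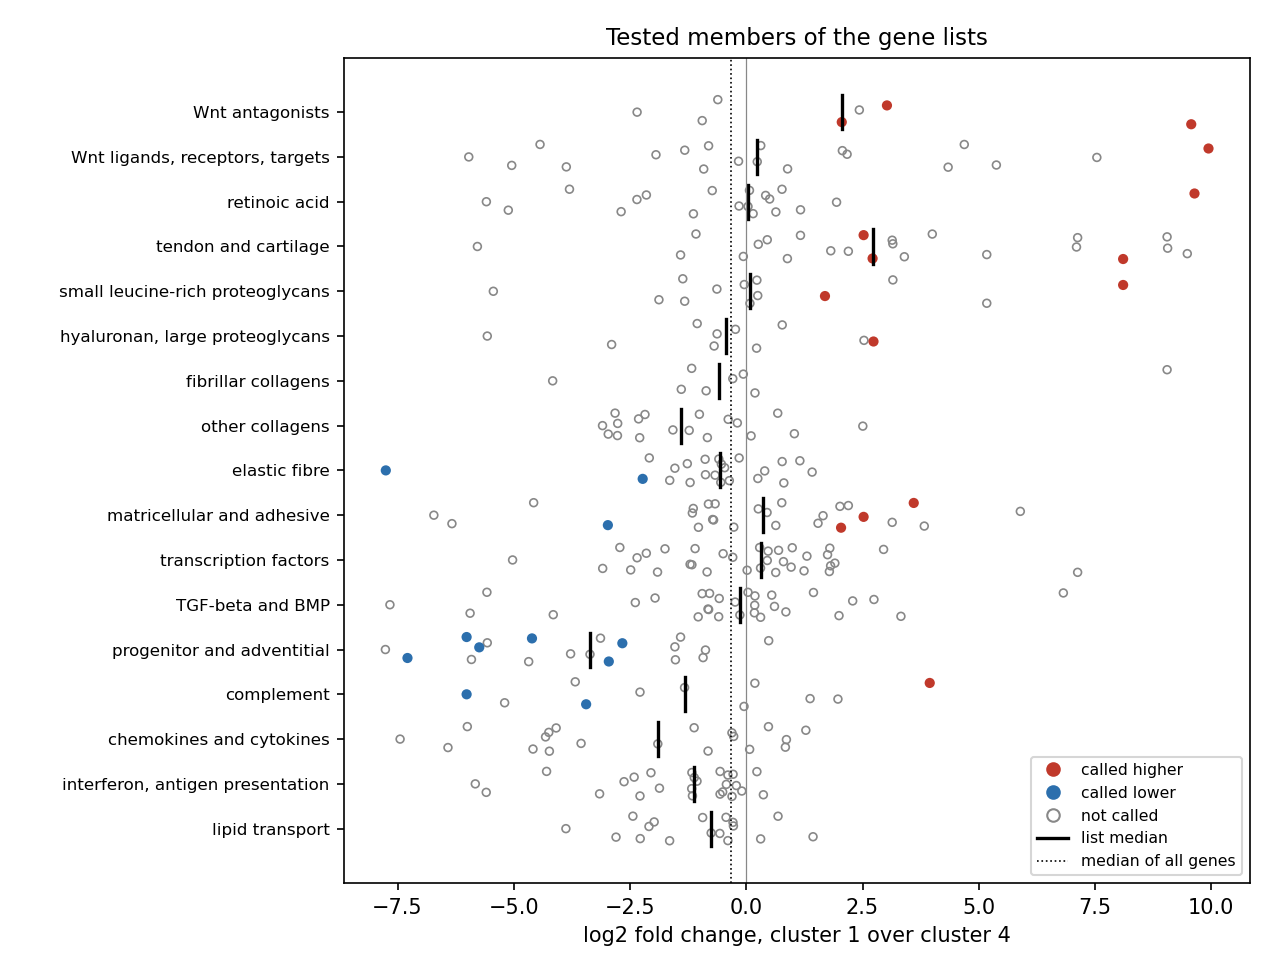
Log2 fold change of cluster 1 over cluster 4 for each tested member (circles) of 17 gene lists, with called members filled red (higher) or blue (lower), thick bars at list medians and a dotted line at the median of all genes, -0.33. The progenitor and adventitial list has 6 members called lower and a median of -3.36, and the tendon and cartilage list 3 called higher and a median of 2.72.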

How the data were processed

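Per the labels and the study's methods, single cells were sorted into 384-well plates and processed with Smart-seq2. The authors trimmed single 50-base reads with Trim Galore, mapped them to GRCm38 with TopHat2, filtered cells on counts, genes, spike-ins and mitochondrial share, and clustered them with pagoda2. The deposited values are raw counts per gene and cell from featureCounts, and the strand setting was not given in the sources used here. ERCC spike-ins (1.82% of counts) were left out. Counts were summed per strain and cluster, from 3 cells or more, and compared with edgeR 4.0.16 in R 4.3.3 (TMM, filterByExpr with a minimum count of 10, strain as block, Benjamini-Hochberg adjustment over all genes tested). SE is the absolute log2 fold change over the square root of F. DESeq2 1.42.0, limma 3.58.1 and the other alternatives are given at the end. Reads have no molecular identifiers. The labels name no animal. With strain as the block, p-values measure how the difference between the compared clusters varied among strains, and not the spread among animals of a strain. Strain, gate and, except in C57BL6, plate cannot be told apart. Gene positions are from GENCODE M21 and promoters from RefSeq. Named genes were Prg4, Comp, Scara3, Wif1, Cyp2e1, Thbs1, Fmod, the 12 genes with the largest fold change in each direction (adjusted p under 0.05, same direction in 4 of 4 strains, a count in 30% of cells of the higher cluster) and at most 6 called members of each list, or 2 by level where none was called. Procr, Scx, Sfrp2, Axin2, Nkd1, Aldh1a1, Rarb, Sox9, Col4a1, Col4a2, Col3a1, Dpp4, Ly6c1, Ly6a, Cd34, Gm15851, Timp3, Syn3, Tspan7, Axl, Lbp, Carhsp1, Slc1a5 and Slc43a3 were added after their values were seen. The members and gene lists were chosen with earlier results of these data known.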

Additional observations from a re-analysis of the deposited data

Results flagged for a closer look

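For the named genes, the levels in cluster 1 and in cluster 4 and the log2 differences within strains (of CPM + 1) were searched for a strain standing apart from the other 3 by Dixon's criterion. In all, 8 sets of 4 values were marked, 5.23% of those tested, where chance gives about 1 in 20. In Cspg4dsRED, Clu stood at 4257 CPM in cluster 1 against 842 to 908 CPM in the other strains, and Col6a1 at 1211 CPM against 679 to 721 CPM, both from 3 cells. Cxcl12 stood at 421 CPM in cluster 4 of Cspg4dsRED against 144.4 to 188.7 CPM. In Acta2GFP, Chad stood at 16.8 CPM in cluster 4 against 0.684 to 3.15 CPM and Clu at 159.6 CPM against 61.3 to 69.7 CPM, while Atp1b1 stood at 411 CPM in cluster 1 against 200.8 to 221.98 CPM. The log2 difference of S100b was 6.10 in PdgfrbGFP against 4.72 to 4.87, and that of Frzb was 1.13 in C57BL6 against 2.31 to 2.46.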

How the results depend on the processing

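Between clusters 1 and 4 the 45 calls were 0.357% of genes tested, 0.182% higher and 0.175% lower. Without the replicate block for strain the shares were 0.761%, 0.397% and 0.365%, and 42 of the 45 were among the calls. DESeq2 gave 7.10%, 2.28% and 4.81%, limma voom 2.20%, 0.952% and 1.25%, no filter on low counts 0.640%, 0.262% and 0.378%, limma on mean CPM over cells 0.754%, 0.325% and 0.428%, and the plate as unit and block 0.641%, 0.279% and 0.362%. These lists held 45, 45, 45, 44 and 38 of the 45. DESeq2 size factors in edgeR gave 46 calls. Leaving out 1 strain at a time gave 0.0233% to 0.48% of genes called, 0.0155% to 0.21% higher and 0.00776% to 0.27% lower. For cluster 4 against clusters 2, 3 and 5, DESeq2 called 3.15%, and leaving out 1 strain 0% to 0.0131%. For cluster 1 against them, DESeq2 called 8.37%, and leaving out 1 strain 0.0311% to 0.935%. The causes were not tested. Among the 55 genes named by rule, the only ones examined singly, directions turned for 3, all uncalled. Col1a1 was at 0.0042 without the block, 0.13 in limma voom and -0.19 to 0.12 with 1 strain left out. Il33 was at 0.39 in limma voom and -1.01 to 0.23 with 1 strain left out, positive also without Acta2GFP (0.055). Igfbp7 was at -0.40 to 0.00083 with 1 strain left out. The 3 Cspg4dsRED cells limit cluster 1 most in depth.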
